A study of Mus musculus with 13 samples.

Results

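Osteopontin and bone sialoprotein are secreted, acidic phosphoproteins of mineralised matrix, encoded in the mouse by Spp1 and Ibsp. The 2 genes were picked by symbol from the 43346 entries of the deposited expression table and were followed through all 13 libraries. They had been chosen with their levels in these libraries known, so those levels and differences are given as a description, without a test.

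The libraries were made from RNA of lung fibroblasts of Col1a1-GFP mice, whose transgene puts GFP under the promoter of the collagen gene Col1a1. The 4 groups were lungs at day 30 after bleomycin, a drug that injures and scars the lung (n = 5), at day 14 after bleomycin (n = 3), at day 14 after pneumonectomy, the surgical removal of lung tissue after which the remaining lung grows (n = 3), and sham controls (n = 2). All 4 groups carried the transgene according to the design text, and the age of 8 weeks was given for the sham and bleomycin mice, while the group row of the deposited table calls the pneumonectomy mice, like the others, young. The labels gave no bleomycin dose, sorting gate or sex, and no day for sham, so whether sham matched any group in time is unknown. The labels also did not say whether each library came from its own animal, so spread between libraries may be partly technical. The pneumonectomy libraries, called A, B and C because their columns carry no replicate number, were described as primary sorted fibroblasts with a kit protocol of their own, and a difference in preparation cannot be told apart from pneumonectomy.

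Levels are RPKM, read counts corrected for gene length and library depth by the authors. Estimated depth was 132.6 to 200.3 M reads at day 30 after bleomycin, 79.9 to 99.9 M reads at day 14, 68.9 to 75.4 M reads after pneumonectomy, and 67.6 and 72 M reads in sham. The fibroblast genes Col1a1, Col1a2, Col3a1, Pdgfra, Pdgfrb, Dcn, Lum, Thy1 and Tcf21 summed to 3371 to 3815 RPKM at day 30, 2740 to 3433 RPKM at day 14, 2830 to 4509 RPKM after pneumonectomy, and 2987 and 4128 RPKM in sham, most of it Col1a1, Col3a1 and Dcn. Members of this list moved apart from the sum: 5 of 9 were called lower at day 14 than in sham (limma, median log2 difference -1.05, 0.02 over all genes tested), with Dcn at 117 to 169 RPKM against 1382 and 1856 RPKM (-3.78 ± 0.25, adjusted p = 2.58e-07) and Lum, Tcf21, Thy1 and Pdgfra also lower, and 1 was called higher. At day 30 against sham 1 was higher and 2 lower, and after pneumonectomy 2 were higher and 1 lower. Xist, expressed in female cells, was at 19.9 to 29.2 RPKM in the day 30 libraries, at 0.0102 to 0.0126 RPKM at day 14, at 0.00448 to 0.0222 RPKM after pneumonectomy, and at 15.9 and 0.0147 RPKM in sham 1 and sham 2. The Y-linked Ddx3y was at 0 in every day 30 library, at 9.91 to 10.5 RPKM at day 14, at 15.9 to 23.8 RPKM after pneumonectomy, and at 2.14 and 11.4 RPKM in sham 1 and sham 2. The sex of the cells therefore differed between groups and could not be told apart from them, and sham 1 held RNA of both kinds.

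Both genes belong to the SIBLING family, a set of related matrix phosphoproteins best known from bone and teeth that also counts Dmp1, Dspp and Mepe. Each carries an arginine-glycine-aspartate (RGD) site by which it binds integrins at the cell surface, and osteopontin also binds CD44. Osteopontin is in addition a cytokine, made by macrophages, epithelial cells and fibroblasts of injured tissue, whereas bone sialoprotein is made mainly by osteoblasts, osteoclasts and other cells of mineralising tissue and can seed hydroxyapatite crystals.

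The 5 genes lie on the plus strand of chromosome 5 (mm10) within 270.3 kb. In gene order these are Dspp (start 104170712, end 104180127), Dmp1 (start 104202613, end 104214102), Ibsp (start 104299171, end 104311469), Mepe (start 104325329, end 104338611) and Spp1 (start 104435118, end 104441050), all protein-coding. Ibsp and Spp1 start 135.9 kb apart. An unnamed model gene on the same strand, Gm42793, overlaps Spp1, and how the authors assigned reads there is not given in the sources used here.

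The integrin-binding site is the feature through which the members act on cells, and each of the 5 genes held 1 such site in the longest reading frame among its GENCODE M21 coding transcripts. The coding sequence around it is shown, with the 9 bases for Arg-Gly-Asp in capitals.
Spp1: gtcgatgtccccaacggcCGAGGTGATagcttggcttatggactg
Ibsp: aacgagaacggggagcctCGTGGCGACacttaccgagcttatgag
Dmp1: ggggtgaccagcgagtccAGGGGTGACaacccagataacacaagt
Dspp: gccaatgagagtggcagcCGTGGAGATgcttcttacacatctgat
Mepe: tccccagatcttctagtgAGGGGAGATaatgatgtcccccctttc
The site began at codon 160 of 310 in Spp1 and at codon 293 of 324 in Ibsp, in the middle of the osteopontin frame and near the end of the bone sialoprotein frame.

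The promoters of the 2 members are shown because the members differed in when they were highest. RefSeq on GRCm38.p6 gives 250 bases before to 50 bases after the start of Spp1 (chr5:104434861-104435160) and of Ibsp (chr5:104299037-104299336), both on the plus strand. Capitals mark the motifs found.
Spp1: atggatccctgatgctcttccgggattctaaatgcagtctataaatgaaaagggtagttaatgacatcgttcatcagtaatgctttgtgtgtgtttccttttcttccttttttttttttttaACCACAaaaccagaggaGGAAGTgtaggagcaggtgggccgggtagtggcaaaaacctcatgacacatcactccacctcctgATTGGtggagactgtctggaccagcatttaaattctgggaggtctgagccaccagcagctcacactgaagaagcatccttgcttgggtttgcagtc
Ibsp: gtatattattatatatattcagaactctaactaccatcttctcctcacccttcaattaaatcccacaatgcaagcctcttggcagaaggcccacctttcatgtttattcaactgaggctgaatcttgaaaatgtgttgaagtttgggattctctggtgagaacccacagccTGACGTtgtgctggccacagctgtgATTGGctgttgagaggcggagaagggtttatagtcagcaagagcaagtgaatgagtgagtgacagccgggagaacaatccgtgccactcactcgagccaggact
The motifs searched, on both strands, were the RUNX core ACCACA, the ETS core GGAAGT, the CCAAT box, the AP-1 motif TGANTCA and the cAMP response element core TGACGT. The Spp1 window held ACCACA at -128, GGAAGT at -111 and a CCAAT box on the minus strand at -46, which reads ATTGG on the plus strand. The Ibsp window held TGACGT at -79 and a CCAAT box on the minus strand at -54. The Spp1 set was not particular to it. The Dmp1 window also held ACCACA (-164), GGAAGT (-121) and a minus-strand CCAAT box (-57). The Mepe window held RUNX cores at -118 and -80 and a minus-strand CCAAT box at -21. Of 32851 promoter windows of the same length, 16.8% held ACCACA, 23.8% GGAAGT, 37.4% CCAAT, 7.81% TGANTCA and 7.51% TGACGT. These matches describe letters in a window, and binding was not measured. The RefSeq start of Ibsp, 104299287, lies inside the gene as GENCODE draws it.

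Spp1 was among the most abundant RNAs of the bleomycin libraries and was low in the other groups. It stood at 290, 522, 317, 483 and 523 RPKM in day 30 libraries 1 to 5, at 1341, 715 and 1297 RPKM in day 14 libraries 1 to 3, at 9.87, 4.25 and 6.49 RPKM in pneumonectomy libraries A, B and C, and at 2.91 and 2.32 RPKM in sham 1 and 2. The 4 groups did not overlap, and the order was bleomycin day 14, bleomycin day 30, pneumonectomy, sham. Of all genes tested, 35.7% were higher without overlap at day 30 than in sham, 53.9% at day 14 than in sham, 18.7% after pneumonectomy than in sham, and 61.5% after bleomycin than after pneumonectomy at day 14. These shares were taken on RPKM as deposited, without scaling between libraries. On those values the median log2 difference of all genes was 0.11, 0.26, -0.21 and 0.47 in the same order, which bears on the shares. The group means were 427 ± 114 RPKM at day 30 (SD, n = 5), 1118 ± 349 RPKM at day 14 (n = 3), 6.87 ± 2.83 RPKM after pneumonectomy (n = 3) and 2.61 ± 0.418 RPKM in sham (n = 2).

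Among 22032 protein-coding entries Spp1 ranked 13th to 35th in the day 30 libraries and 3rd to 6th in the day 14 libraries. In pneumonectomy libraries it ranked 1779th to 4011th, and in sham 5869th and 6808th. It made up 0.200% to 0.378% of the summed RPKM at day 30, 0.458% to 0.867% at day 14, 0.00314% to 0.00703% after pneumonectomy, and 0.00165% and 0.00214% in sham. In such bulk libraries, a change in the number of cells that make an RNA and a change in the RNA per cell cannot be told apart.

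On the log2 scale, after scaling between libraries and adding 0.1 RPKM, Spp1 was higher by 7.14 ± 0.35 (SE) at day 30 than in sham, and by 8.40 ± 0.38 at day 14 than in sham. After pneumonectomy it differed from sham by 1.51 ± 0.38. Day 14 after bleomycin exceeded day 14 after pneumonectomy by 6.89 ± 0.34, and day 30 was below day 14, with a difference of -1.25 ± 0.31. The ratio of mean RPKM was 163 for day 30 over sham, 427 for day 14 over sham, 2.63 for pneumonectomy over sham and 0.382 for day 30 over day 14. These comparisons share the sham or the day 14 libraries and are not independent of each other.

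Ibsp was far less abundant and was highest at day 30. It stood at 2.87, 9.21, 4.43, 9.34 and 9.30 RPKM in day 30 libraries 1 to 5, at 1.08, 1.21 and 2.70 RPKM in day 14 libraries 1 to 3, at 0.297, 0.0321 and 0.0491 RPKM in pneumonectomy libraries A, B and C, and at 0.0143 and 0 RPKM in sham 1 and 2. The groups did not overlap, although the lowest day 30 library and the highest day 14 library lay close together. Pneumonectomy B and sham 1 were set apart by few reads (5 and 2). As given for Spp1, 35.7%, 53.9% and 18.7% of all genes tested were higher without overlap than in sham at day 30, at day 14 and after pneumonectomy. Means were 7.03 ± 3.13 RPKM at day 30 (SD, n = 5), 1.66 ± 0.900 RPKM at day 14 (n = 3) and 0.126 ± 0.149 RPKM after pneumonectomy (n = 3).

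Read counts estimated from the RPKM values show how little lay behind the low Ibsp levels. They were 788 to 3812 per library at day 30, 178 to 488 at day 14, 46, 5 and 7 in pneumonectomy A, B and C, and 2 and 0 in sham 1 and 2. In sham 2, a count of 0 allows up to 0.0202 RPKM (3 reads). Relative to depth, the pooled read count was 1035 times that of sham at day 30 (exact 95% interval 287 to 8550), 239 times at day 14 (66.0 to 1978) and 18.5 times after pneumonectomy (4.89 to 156). The intervals cover counting error only, because reads were pooled within groups and the spread between libraries was left out. Any amplified copies of a molecule counted as separate reads would make them too narrow. Pneumonectomy library A held most of that group's reads.

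The log2 difference of Ibsp was 5.84 ± 0.56 (SE) for day 30 against sham, 3.75 ± 0.61 for day 14 against sham, 1.02 ± 0.61 for pneumonectomy against sham, 2.73 ± 0.54 for bleomycin against pneumonectomy at day 14, and 2.10 ± 0.48 for day 30 against day 14. These values depend on the 0.1 RPKM added to levels near 0. With 1 RPKM added the first 4 came to 2.83, 1.24, 0.18 and 1.05. The pneumonectomy difference was 0.48 without library A.

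**Figure D1:**
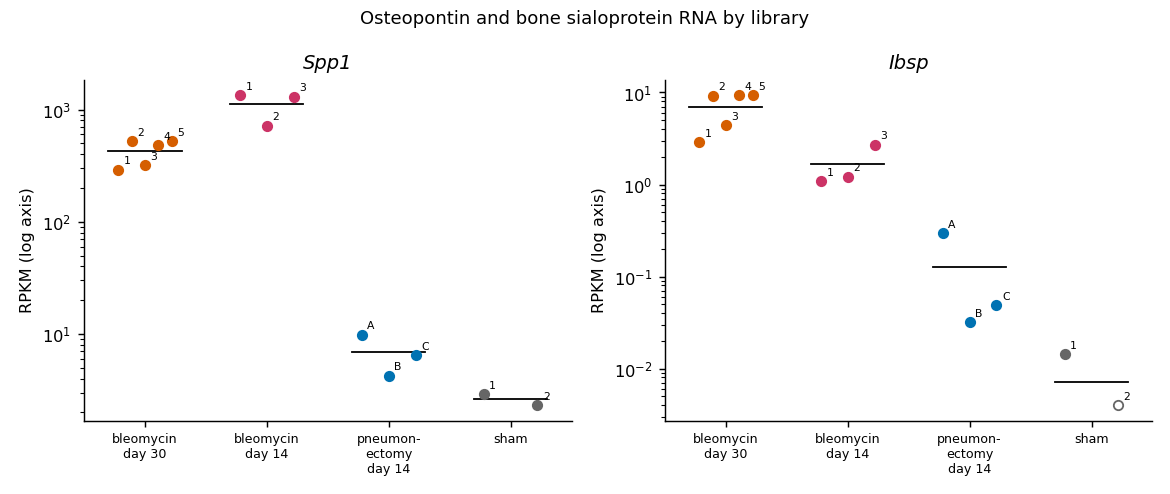
RPKM of Spp1 (left) and Ibsp (right) on log axes in each library, with replicate numbers beside the points and black lines at group means; the open point is a library at 0, drawn at the foot of the axis. Spp1 is highest at day 14 after bleomycin (715 to 1341 RPKM) and Ibsp at day 30 (2.87 to 9.34 RPKM).

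The members thus had opposite orders within the bleomycin course. Every day 30 library was below every day 14 library for Spp1 and above every day 14 library for Ibsp. Across the 12938 genes tested, 39.7% were lower and 21.0% higher at day 30 than at day 14 with no overlap. Those shares used RPKM as deposited, without scaling, where the median log2 difference of all genes was -0.13. Spp1 exceeded Ibsp in RPKM, a scale per gene length, by 51.7 to 101 times at day 30, by 481 to 1244 times at day 14, by 33.2 to 132 times after pneumonectomy and by 203 times in sham 1. The ratio at day 30 was below that at day 14 in every library. Within day 14, library 1 had the highest Spp1 and the lowest Ibsp, and library 3 had high levels of both. Within day 30, libraries 1 and 3 were the lowest for both genes. No library left out in turn changed the direction of any of these differences for either member.

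The other SIBLING genes were low, below the level of 1 RPKM in 2 libraries that admitted a gene to the main tests. Dentin matrix protein gene Dmp1, whose product regulates mineralisation and phosphate balance, was at 0.0848, 0.712, 0.533, 0.573 and 0.891 RPKM in day 30 libraries 1 to 5, at 1.15, 0.871 and 0.763 RPKM at day 14, at 0.165, 0.0913 and 0.389 RPKM after pneumonectomy, and at 0.0805 and 0.0151 RPKM in sham. Day 30 library 1 lay between the lowest pneumonectomy library and the highest sham library. Dspp, which encodes the dentin sialophosphoprotein of teeth, was at 0.0392 to 0.0944 RPKM at day 30 (23 to 83 reads), 0.337 to 0.690 RPKM at day 14 (149 to 244 reads), 0.0229 to 0.0270 RPKM after pneumonectomy (7 to 9 reads), and 0.00334 and 0.0126 RPKM in sham (1 and 4 reads). Every day 14 bleomycin library stood above all other libraries for Dspp, while the order of sham and pneumonectomy rests on few reads. Of the genes that passed the filter, which leaves Dspp out, 53.9% were higher without overlap at day 14 than in sham. For bleomycin against pneumonectomy at day 14 the share was 61.5%, both on RPKM as deposited, without scaling. Mepe, a matrix phosphoglycoprotein gene of osteocytes, had 0 to 11 reads at day 30, 1 to 6 at day 14, and 0 in every pneumonectomy and sham library.

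When limma was fitted without the filter on low values, with Benjamini-Hochberg adjustment over all entries, Dspp was lower at day 30 than at day 14 by a log2 difference of -1.68 ± 0.19 (SE, adjusted p = 3.65e-05). At day 14 after bleomycin it exceeded sham by 2.29 ± 0.23 (adjusted p = 1.73e-05) and pneumonectomy by 2.03 ± 0.21 (adjusted p = 1.43e-05). Dmp1 exceeded sham by 1.93 ± 0.56 at day 30 (adjusted p = 0.0451) and by 2.63 ± 0.62 at day 14 (adjusted p = 0.00572), and did not pass at day 30 against day 14 (-0.70 ± 0.49, adjusted p = 0.347). In time course Dspp, like Spp1, was lower at day 30 than at day 14, while Ibsp was the one SIBLING gene whose day 30 libraries all lay above those of day 14.

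**Figure D2:**
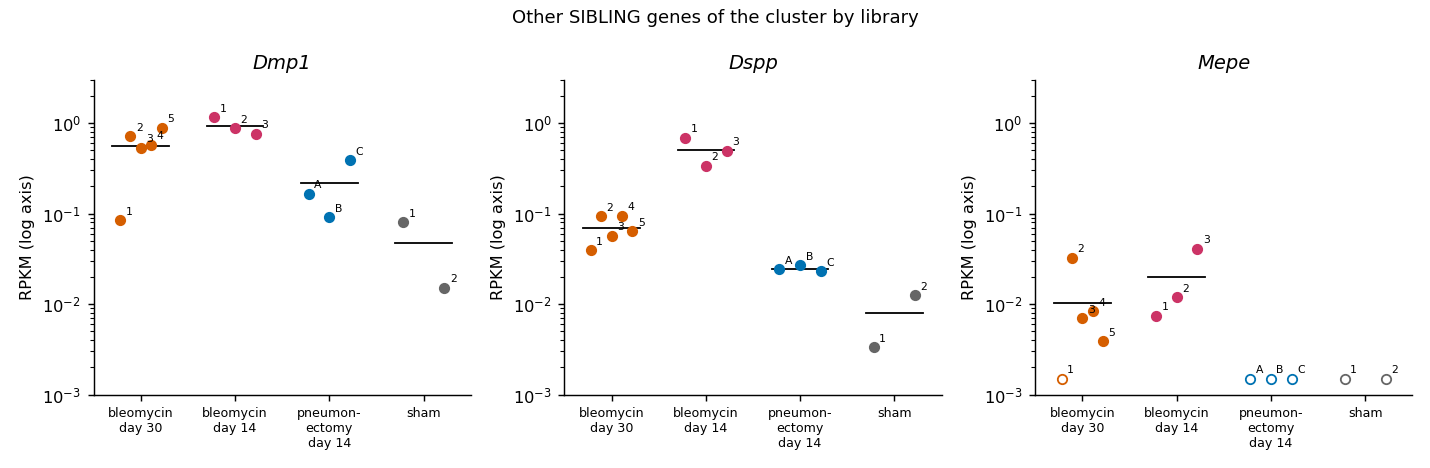
RPKM of Dmp1, Dspp and Mepe on a shared log axis in each library, with replicate numbers and black lines at group means; open points are libraries at 0, drawn near the foot of the axis. Dspp at day 14 after bleomycin (0.337 to 0.690 RPKM) lies above all other libraries, and Mepe is at 0 in every pneumonectomy and sham library.

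The genes flanking the cluster varied over a narrower range. Sparcl1, which encodes a SPARC-like matrix glycoprotein on the far side of Dspp, was at 289 to 356 RPKM at day 30, 424 to 446 RPKM at day 14, 446 to 494 RPKM after pneumonectomy, and 231 and 203 RPKM in sham. It was called higher than sham by 0.44 ± 0.11 at day 30 (limma, adjusted p = 0.0119), 0.77 ± 0.12 at day 14 (adjusted p = 0.000156) and 1.33 ± 0.12 after pneumonectomy (adjusted p = 1.31e-05); the day 30 call was lost without sham 2 (adjusted p = 0.115). Pkd2, the polycystin-2 gene beyond Spp1, was at 11.8 to 13.7 RPKM at day 30, 9.47 to 14 RPKM at day 14, 9.86 to 11.6 RPKM after pneumonectomy, and 12.9 and 12.0 RPKM in sham.

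To describe the surroundings of the members, 66 companion genes were listed: relatives and neighbours, receptors, processing enzymes, upstream factors, bone cell genes and regulators of mineralisation. Of the 46 that passed the filter, 18 were called higher and 5 lower at day 30 than in sham (limma, adjusted p below 0.05), where 28.8% of all genes tested were called, 14.8% as higher and 14.1% as lower. At day 14 against sham 21 were higher and 16 lower, with 63.3% of all genes called, 33.4% as higher and 29.9% as lower. After pneumonectomy 25 were higher and 4 lower than sham, with 42.0% called, 22.6% as higher and 19.3% as lower. For bleomycin against pneumonectomy at day 14 the numbers were 13 and 22, with 70.8% called, 36.2% as higher and 34.6% as lower. For day 30 against day 14 they were 20 and 15, with 59.6% called, 28.9% as higher and 30.7% as lower. The companions' median log2 difference was 0.25 at day 30, 0.43 at day 14 and 0.61 after pneumonectomy against sham, and -0.00, 0.02 and 0.01 over all genes tested. Scaling bore on these directions. With the RPKM as deposited, 21 companions were higher and 2 lower at day 30 than in sham, 25 and 11 at day 14, 20 and 7 after pneumonectomy, and 21 and 15 for bleomycin against pneumonectomy. Of all called genes, the higher ones were then 76.4% at day 30 (51.2% with scaling), 71.6% at day 14 (52.7% with scaling) and 25.4% after pneumonectomy (54.0% with scaling), all against sham. For bleomycin against pneumonectomy the share was 77.4% (51.1% with scaling), and for day 30 against day 14 it was 34.8% (48.5% with scaling). The number of all genes called at day 30 against sham, 3731, was 2333 without sham 1 and 1794 without sham 2. That after pneumonectomy, 5430, was 3311 without sham 2.

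CD44, the hyaluronan receptor that also binds osteopontin, was the receptor gene called higher than sham in all 3 groups. It was at 13.2 to 16.9 RPKM at day 30, 23.8 to 31.8 RPKM at day 14, 14.7 to 20.5 RPKM after pneumonectomy, and 6.73 and 4.80 RPKM in sham, so every other library lay above sham. The log2 differences from sham were 1.30 ± 0.18 at day 30 (limma, adjusted p = 0.000504), 1.99 ± 0.19 at day 14 (adjusted p = 4.05e-06) and 1.79 ± 0.19 after pneumonectomy (adjusted p = 4.46e-05). Cd44 was not called different between bleomycin and pneumonectomy at day 14 (0.20 ± 0.17, adjusted p = 0.310). It was lower at day 30 than at day 14 (-0.68 ± 0.15, adjusted p = 0.00237).

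The integrin genes went in several directions. Of the 8 receptors tested of 10 listed, Cd44 included, 1 was called higher and 2 lower at day 30 than in sham, 3 higher and 4 lower at day 14, and 7 higher and none lower after pneumonectomy. Of all genes tested, 28.8%, 63.3% and 42.0% were called in these comparisons. With the values as deposited the counts were 1 and 0, 3 and 3, and 5 and 1. Itgb1, the common beta 1 subunit, rose at day 14 by 0.71 ± 0.11 (adjusted p = 0.000145) and after pneumonectomy by 0.82 ± 0.11 (adjusted p = 0.000177). It was at 166 to 183 RPKM at day 14, 126 to 152 RPKM after pneumonectomy, and 97.6 and 82.0 RPKM in sham. Itga5, the alpha subunit of the fibronectin receptor, was at 13.5 to 14.9 RPKM at day 30, 33.4 to 50.1 RPKM at day 14, 26.1 to 34.1 RPKM after pneumonectomy, and 24.7 and 12.6 RPKM in sham. Its calls against sham at day 14 and after pneumonectomy (1.00 ± 0.24 and 0.97 ± 0.24) were lost without sham 2 (adjusted p = 0.0590 and 0.109), whereas its fall at day 30 against day 14 was -1.46 ± 0.20 (adjusted p = 5.79e-05).

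The alpha v integrins are the classical RGD receptors of both members. Itgav itself was at 6.65 to 8.08 RPKM at day 30, 5.87 to 7.61 RPKM at day 14, 7.08 to 7.49 RPKM after pneumonectomy, and 6.77 in both sham libraries. Its call after pneumonectomy (0.33 ± 0.11, adjusted p = 0.0313) was lost on leaving out any 1 of the 5 libraries compared (adjusted p = 0.0579 to 0.115). Its call at day 30 against day 14 (0.26 ± 0.09, adjusted p = 0.0223) was lost without day 14 library 2 (adjusted p = 0.141) or 3 (adjusted p = 0.0783). Its partner Itgb5 was at 49.8 to 67.9 RPKM at day 30, 37.5 to 40.3 RPKM at day 14, 47.8 to 60.0 RPKM after pneumonectomy, and 50.3 and 46.5 RPKM in sham. It was higher at day 30 than at day 14 by 0.76 ± 0.10 (adjusted p = 3.82e-05) and lower at day 14 than in sham by a difference of -0.55 ± 0.12 (adjusted p = 0.00200; 0.0608 with values as deposited). Itgb3, the other main partner, was at 3.21 to 3.74 RPKM at day 30, 2.05 to 2.40 RPKM at day 14, 2.62 to 3.47 RPKM after pneumonectomy, and 5.01 and 3.41 RPKM in sham. It was lower at day 14 than in sham (-1.13 ± 0.14, adjusted p = 3.10e-05) and higher at day 30 than at day 14 (0.76 ± 0.11, adjusted p = 0.000131).

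Itga8 and Itga9, alpha subunits of receptors that bind osteopontin at the RGD site and at the adjoining sequence exposed by thrombin, showed the widest split between the day 14 groups. Itga8 was at 26.4 to 37.0 RPKM at day 30, 15.5 to 19.6 RPKM at day 14 after bleomycin, 81.8 to 114 RPKM after pneumonectomy, and 53.2 and 35.8 RPKM in sham. The log2 difference was -2.91 ± 0.17 for bleomycin against pneumonectomy (adjusted p = 1.18e-07), -1.53 ± 0.19 for bleomycin day 14 against sham (adjusted p = 2.96e-05) and 1.39 ± 0.19 for pneumonectomy against sham (adjusted p = 0.000212). Itga9 was at 8.86 to 9.75 RPKM at day 30, 5.98 to 6.50 RPKM at day 14, 12.4 to 16.9 RPKM after pneumonectomy, and 11.9 and 9.76 RPKM in sham; bleomycin differed from pneumonectomy by -1.66 ± 0.10 (adjusted p = 1.12e-07). At day 30 both were called below sham, Itga8 by -0.52 ± 0.17 (adjusted p = 0.0438) and Itga9 by -0.32 ± 0.10 (adjusted p = 0.0303), and neither call held without sham 1 (adjusted p = 0.429 and 0.299). The Itga8 call was also lost without day 30 library 3, 4 or 5 (adjusted p = 0.0738, 0.0677 and 0.0795), and the Itga9 call without day 30 library 2 or 5 (adjusted p = 0.0561 and 0.0571). Itga4 was at 0.282 to 1.06 RPKM over all libraries. Itgb6, an epithelial subunit, was at most 0.116 RPKM.

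**Figure D3:**
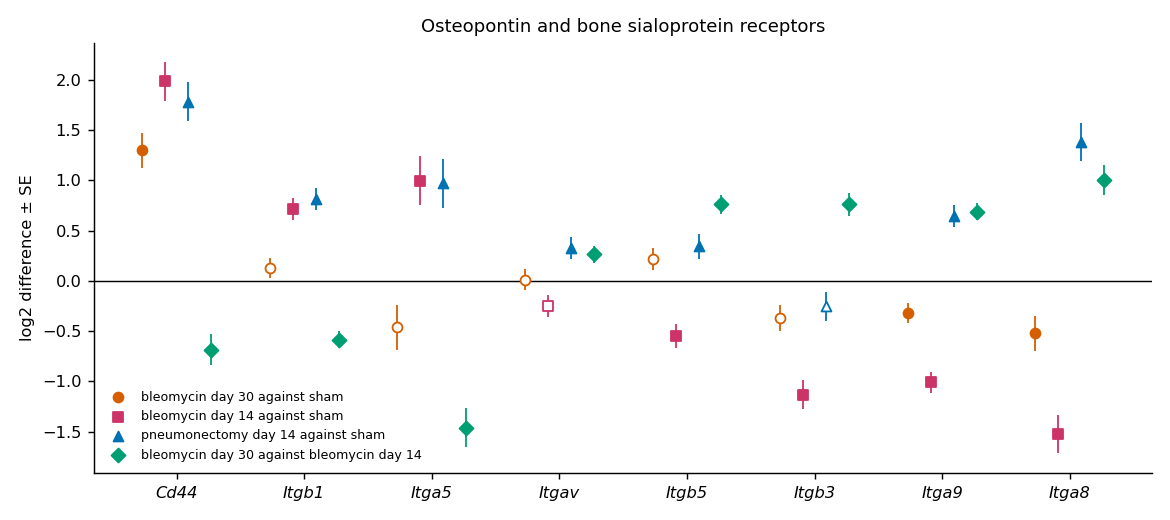
Log2 differences with SE of the 8 receptor genes tested, for 3 groups against sham and for day 30 against day 14 after bleomycin; filled symbols passed an adjusted p of 0.05 in limma and open symbols did not. Cd44 lies above 0 in all 3 comparisons with sham (1.30, 1.99 and 1.79), and Itga8 is below sham at day 14 after bleomycin (-1.53) and above it after pneumonectomy (1.39).

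Enzymes that modify or cut the 2 proteins mostly stood higher at day 30 than at day 14. Of 11 tested of 14 listed, 8 were called higher and 1 lower in that comparison, with a median log2 difference of 1.21 (-0.01 over all genes tested, of which 28.9% were called higher and 30.7% lower). In the same comparison 6 of 9 fibroblast markers were called higher and none lower (median 0.88), and 10 of 10 endothelial markers lower (median -5.76); their part in the enzyme levels was not tested. Fam20c, the Golgi kinase that phosphorylates the SIBLING proteins, was at 5.55 to 7.26 RPKM at day 30, 2.56 to 3.26 RPKM at day 14, 3.76 to 4.19 RPKM after pneumonectomy, and 5.40 and 6.17 RPKM in sham. Its log2 difference was 1.21 ± 0.10 at day 30 against day 14 (limma, adjusted p = 1.21e-06), and -1.16 ± 0.13 at day 14 against sham (adjusted p = 9.06e-06). The gelatinase Mmp2 was at 230 to 256 RPKM at day 30, 75.7 to 81.2 RPKM at day 14, 268 to 337 RPKM after pneumonectomy, and 202 and 192 RPKM in sham, and rose by 1.75 ± 0.09 at day 30 against day 14 (adjusted p = 7.04e-08). Stromelysin-1 (Mmp3), which can cleave osteopontin, was at 39.8 to 70.3 RPKM at day 30, 12.4 to 18.1 RPKM at day 14, 25.7 to 61.1 RPKM after pneumonectomy, and 37.4 and 37.7 RPKM in sham (1.84 ± 0.27 at day 30 against day 14, adjusted p = 0.000131).

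At day 30 against sham, 5 enzymes were called higher and none lower, where 14.8% and 14.1% of all genes were. Mmp12, the macrophage elastase, was at 2.41 to 6.98 RPKM at day 30, 0.409 to 2.38 RPKM at day 14, 0.00550 to 0.0462 RPKM after pneumonectomy, and 0.00614 and 0.0192 RPKM in sham, and exceeded sham by 5.43 ± 0.51 at day 30 (adjusted p = 9.42e-05) and by 3.31 ± 0.55 at day 14 (adjusted p = 0.000286). Acp5, the tartrate-resistant acid phosphatase of osteoclasts and macrophages that removes phosphate from osteopontin, was at 8.99 to 15.4 RPKM at day 30, 4.61 to 6.53 RPKM at day 14, 4.39 to 8.09 RPKM after pneumonectomy, and 4.20 and 5.48 RPKM in sham. It rose at day 30 against sham by 1.26 ± 0.24 (adjusted p = 0.00338) and against day 14 by 1.26 ± 0.21 (adjusted p = 0.000339). The lysosomal protease gene Ctsd exceeded sham by 1.12 ± 0.20 at day 30 (adjusted p = 0.00213), at 129 to 227 RPKM against 78.1 and 83.1 RPKM. The transglutaminase gene Tgm2, whose enzyme cross-links osteopontin, rose after pneumonectomy by 1.05 ± 0.17 (adjusted p = 0.000506). F13a1, encoding a coagulation transglutaminase, was at 0.474 to 0.780 RPKM at day 30 and 2.03 to 5.08 RPKM at day 14, a difference of -1.96 ± 0.26 (adjusted p = 6.01e-05).

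Among the transcription factors known to act on Spp1 or Ibsp in bone and other tissues, 12 of 18 were tested. At day 30 against sham 4 were called higher and 2 lower, at day 14 against sham 7 and 5, and after pneumonectomy 6 and 2, where 28.8%, 63.3% and 42.0% of all genes were called. Runx1 was at 1.69 to 3.52 RPKM at day 30, 5.42 to 8.09 RPKM at day 14, 3.07 to 3.97 RPKM after pneumonectomy, and 0.358 and 0.327 RPKM in sham. It exceeded sham by 2.54 ± 0.24 at day 30 (limma, adjusted p = 9.92e-05), by 3.67 ± 0.26 at day 14 (adjusted p = 5.12e-07) and by 3.23 ± 0.26 after pneumonectomy (adjusted p = 8.16e-06).

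Runx2, the master factor of osteoblasts, separated the day 14 groups. It was at 0.619, 1.12, 0.803, 1.38 and 1.25 RPKM in day 30 libraries 1 to 5, at 2.04, 1.36 and 1.80 RPKM in day 14 libraries 1 to 3, at 0.374, 0.240 and 0.376 RPKM in pneumonectomy A, B and C, and at 0.0905 and 0.148 RPKM in sham 1 and 2. Within each bleomycin group the library with the lowest Spp1 (day 30 library 1, day 14 library 2) also had the lowest Runx2. This was not particular to Runx2. The same libraries were lowest in their groups for Runx1 (1.69 and 5.42 RPKM) and for Col1a1 (675 and 1196 RPKM). The Runx2 difference of bleomycin from pneumonectomy at day 14 was 1.69 ± 0.27 (adjusted p = 0.000145) and that of day 30 from sham 2.25 ± 0.28 (adjusted p = 0.000299). Sp7, the osteoblast factor that acts after Runx2, was low and, like Ibsp, had its highest levels at day 30, although day 30 library 1 lay in the day 14 range. It was at 0.0390, 0.107, 0.0783, 0.197 and 0.192 RPKM in day 30 libraries 1 to 5, at 0.0129, 0.0310 and 0.0551 RPKM in day 14 libraries 1 to 3, at 0.00999 to 0.0322 RPKM after pneumonectomy, and at 0 and 0.00478 RPKM in sham 1 and 2. Fitted without the filter, the Sp7 difference was 0.70 ± 0.23 for day 30 against day 14 (adjusted p = 0.0358) and 1.02 ± 0.26 for day 30 against sham (adjusted p = 0.0258). The vitamin D receptor gene Vdr, whose product binds the Spp1 promoter in bone cells, exceeded sham in the same fit by 1.19 ± 0.18 at day 30 (adjusted p = 0.00213) and by 1.37 ± 0.19 at day 14 (adjusted p = 0.000197), at 0.206 to 0.384 RPKM at day 30, 0.374 to 0.443 RPKM at day 14, and 0.0839 and 0.0615 RPKM in sham.

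At day 30 against day 14, 3 of the 12 factors tested were called higher and 7 lower, where 28.9% and 30.7% of all genes were. The higher ones were Fos (1.18 ± 0.25, limma, adjusted p = 0.00175), Jun (0.98 ± 0.20, adjusted p = 0.00112), both AP-1 subunits, and the general factor gene Sp1 (0.54 ± 0.07, adjusted p = 2.46e-05). Fos was at 389 to 629 RPKM at day 30, 222 to 232 RPKM at day 14, 342 to 425 RPKM after pneumonectomy, and 726 and 280 RPKM in sham. Ets1, the founding ETS factor, was at 2.29 to 2.94 RPKM at day 30, 11.1 to 16.5 RPKM at day 14, 7.88 to 8.13 RPKM after pneumonectomy, and 2.46 and 2.21 RPKM in sham. It fell at day 30 against day 14 by 2.27 on the log2 scale (SE 0.11, adjusted p = 5.77e-08) and exceeded sham by 2.33 ± 0.14 at day 14 (adjusted p = 1.42e-07). Endothelial cells express Ets1, and the summed level of 10 endothelial markers was 17.6 to 20.1 RPKM at day 30, 309 to 606 RPKM at day 14, 21.9 to 48.6 RPKM after pneumonectomy, and 22.9 and 28.7 RPKM in sham, with 9 of 10 called higher at day 14 than in sham. Their part in the Ets1 or Spp1 levels was not tested. The AP-1 subunit gene Fosl1 was at 0.823 to 1.02 RPKM at day 30, 2.12 to 2.86 RPKM at day 14, 9.48 to 17.9 RPKM after pneumonectomy, and 0.824 and 0.774 RPKM in sham, and bleomycin was below pneumonectomy at day 14 by a difference of -2.80 ± 0.20 (adjusted p = 3.57e-07). Hif1a, the hypoxia factor, was at 8.34 to 9.41 RPKM at day 30, 15 to 16.6 RPKM at day 14, 12.1 to 14.4 RPKM after pneumonectomy, and 7.18 and 6.63 RPKM in sham (-0.69 ± 0.07 at day 30 against day 14, adjusted p = 5.26e-06).

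**Figure D4:**
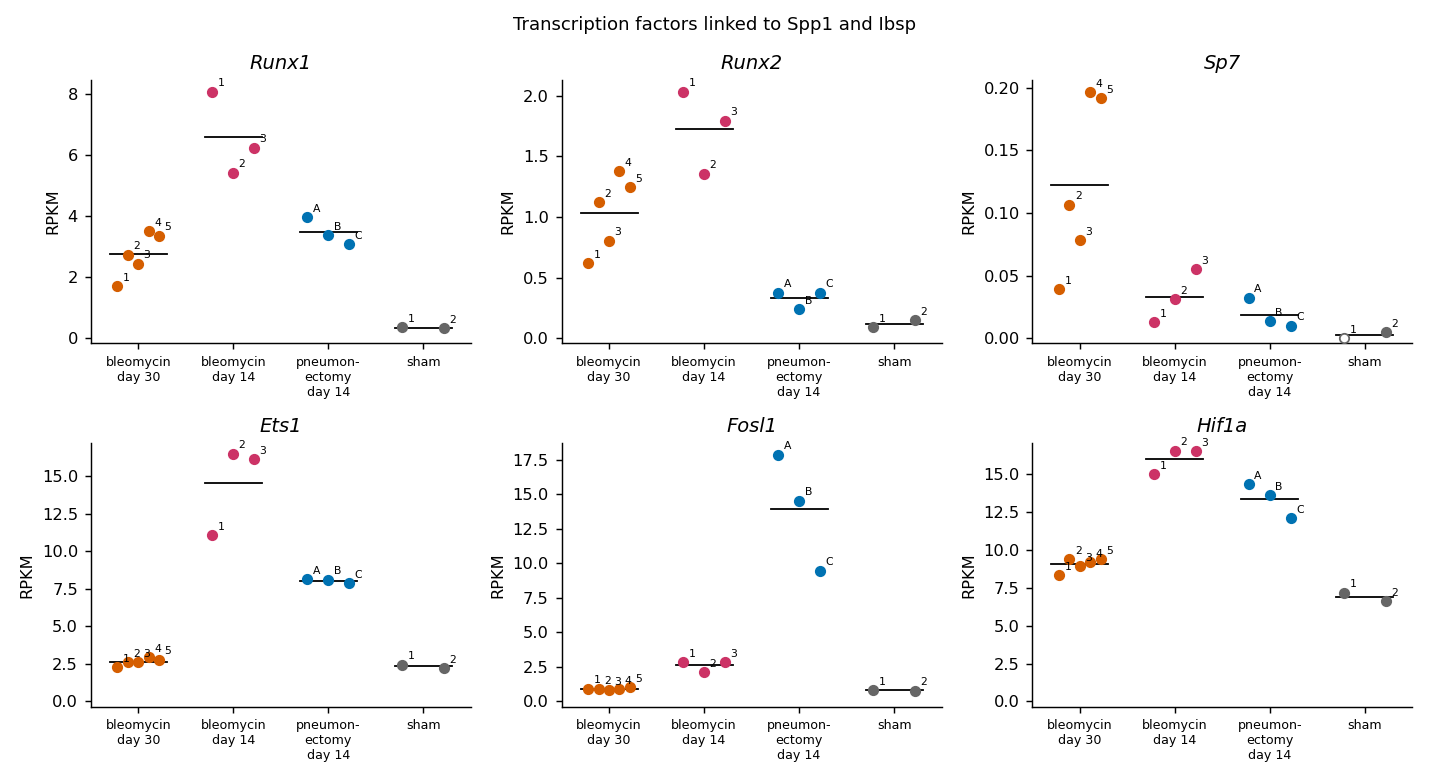
RPKM of Runx1, Runx2, Sp7, Ets1, Fosl1 and Hif1a in each library, with replicate numbers and black lines at group means; the open point is a library at 0. Runx2 is higher in both bleomycin groups (0.619 to 2.04 RPKM) than after pneumonectomy (0.240 to 0.376 RPKM), Sp7 has its highest values at day 30 (0.0390 to 0.197 RPKM), and Fosl1 is highest after pneumonectomy.

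The bone cell genes went in several directions. Of 15 bone cell genes 7 were tested. At day 30 against sham 3 were called higher and 1 lower, at day 14 3 and 3, and after pneumonectomy 4 and 1, where 28.8%, 63.3% and 42.0% of all genes were called. The osteocalcin genes Bglap and Bglap2, products of mature osteoblasts, were at most 0.0718 RPKM in any library. Sost, the sclerostin gene known from osteocytes, was at 4.53 to 12.0 RPKM at day 30, 0.443 to 0.936 RPKM at day 14, 16.6 to 25.1 RPKM after pneumonectomy, and 13.9 and 7.52 RPKM in sham. Its difference was -4.09 ± 0.41 at day 14 against sham (limma, adjusted p = 5.61e-06) and 3.55 ± 0.33 at day 30 against day 14 (adjusted p = 3.28e-06). Osteomodulin (Omd), a keratan sulphate proteoglycan of bone, was at 2.53 to 4.18 RPKM at day 30, 0.209 to 0.476 RPKM at day 14, 1.84 to 4.39 RPKM after pneumonectomy, and 6.91 and 9.54 RPKM in sham, with -4.46 ± 0.34 at day 14 against sham (adjusted p = 7.49e-07). Col10a1, the collagen of hypertrophic cartilage, was at 0.403, 1.40, 1.03, 3.01 and 2.30 RPKM in day 30 libraries 1 to 5, at 0.0841 to 0.147 RPKM at day 14, at 5.24, 0.106 and 0.352 RPKM in pneumonectomy A, B and C, and at 0.0331 and 0.0133 RPKM in sham. Its call at day 30 against sham (3.49 ± 1.02, adjusted p = 0.0256) was lost without sham 1 (adjusted p = 0.0968), sham 2 (adjusted p = 0.132), day 30 library 4 (adjusted p = 0.0507) or day 30 library 5 (adjusted p = 0.0514), and pneumonectomy library A alone exceeded every day 30 library.

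Of 9 regulators of mineralisation tested of 10 listed, 5 were called higher than sham at day 30, 6 at day 14 and 6 after pneumonectomy, and none was called lower. Of all genes, 14.8%, 33.4% and 22.6% were called higher in these comparisons, and 14.1%, 29.9% and 19.3% lower. Mgp, the matrix Gla protein that inhibits calcification, was at 2735 to 3470 RPKM at day 30, 2969 to 3888 RPKM at day 14, 2138 to 2322 RPKM after pneumonectomy, and 1129 to 1250 RPKM in sham, and exceeded sham by 1.23 ± 0.16 (adjusted p = 0.000417), 1.32 ± 0.17 (adjusted p = 4.77e-05) and 1.11 ± 0.17 (adjusted p = 0.000493) in that order of groups. Phospho1, a phosphatase gene of matrix vesicles, was at 4.29 to 6.44 RPKM at day 30, 6.88 to 9.07 RPKM at day 14, 3.76 to 4.39 RPKM after pneumonectomy, and 2.85 and 2.93 RPKM in sham. Enpp1, whose enzyme makes the mineral inhibitor pyrophosphate, exceeded sham by 1.23 ± 0.22 at day 30 (adjusted p = 0.00256) and 1.25 ± 0.24 at day 14 (adjusted p = 0.000877).

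The genes whose log2 levels followed each member most closely over the 13 libraries differed. For Spp1 they were Grem1 (Pearson r = 0.985), B4galnt1 (0.979), Glipr1 (0.979), Rnf149 (0.978), Aprt (0.978), Atpif1 (0.978), Minos1 (0.976) and Ak1 (0.964). Grem1, which encodes the BMP antagonist gremlin, was at 11.7 to 28.0 RPKM at day 30, 21.0 to 28.7 RPKM at day 14, 0.400 to 0.929 RPKM after pneumonectomy, and 0.0302 and 0.0785 RPKM in sham. For Ibsp they were Mmp12 (r = 0.966), Atp6v0d2 (0.952), Lyz2 (0.951), Ccl6 (0.949), Rftn1 (0.944), Igfbp2 (0.944), Ap3s1 (0.933) and Romo1 (0.933). Mmp12, Lyz2 and Ccl6 are well known from macrophages, and Atp6v0d2, a proton pump subunit, from osteoclasts and macrophages. Atp6v0d2 was at 3.05 to 11.4 RPKM at day 30, 0.669 to 2.57 RPKM at day 14, 0.259 to 0.476 RPKM after pneumonectomy, and 0.245 and 0.189 RPKM in sham. Spp1 and Ibsp correlated at r = 0.869. Since the libraries fall into 4 groups that set most of these coefficients, they are descriptions and carry no test.

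Macrophages make osteopontin in scarred lung, and their markers moved with the groups. The 16 macrophage markers summed to 243, 531, 788, 452 and 564 RPKM in day 30 libraries 1 to 5, to 169, 556 and 413 RPKM in day 14 libraries 1 to 3, to 57.4, 36.6 and 47.1 RPKM in pneumonectomy A, B and C, and to 43.5 and 35.2 RPKM in sham 1 and 2. Of the 15 tested, 12 were called higher at day 30 and 13 at day 14 than in sham, none was lower in either, and 1 was higher and 3 lower after pneumonectomy. Of all genes, 14.8% were called higher at day 30, 33.4% at day 14 and 22.6% after pneumonectomy. Lyz2 was the most abundant of them in every library. The markers also differed among libraries of 1 group. At day 14, library 1 had the lowest macrophage sum (169 RPKM) and the highest Spp1 (1341 RPKM), and library 2 had the highest sum (556 RPKM) and the lowest Spp1 (715 RPKM). At day 30, library 3 had the highest sum (788 RPKM) with the second lowest Spp1 (317 RPKM) and Ibsp (4.43 RPKM), while library 1 was the lowest in all 3. Lyz2 stood at 593 RPKM in day 30 library 3. The epithelial markers summed to 1251 RPKM in the same library, and whether epithelial RNA had a part in its macrophage sum was not tested. The most abundant markers, Lyz2, Ctss and Chil3, were lowest in day 30 library 1. So were Cd68, Emr1, Mrc1, Marco, Siglecf and Mertk, but the remaining members were not lowest in library 1. Cd14 was highest there (20.2 RPKM), and C1qa (11.5 RPKM), C1qb, C1qc and Csf1r were below library 3 only.

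Markers of the Spp1-expressing macrophages of scars (Trem2, Gpnmb, Fabp5, Mmp12 and Arg1) summed to 20.5 to 43.5 RPKM at day 30, 8.65 to 19.4 RPKM at day 14, 4.70 to 7.89 RPKM after pneumonectomy, and 9.47 and 11.1 RPKM in sham. Gpnmb, the most abundant of them in every library, was at 4.39 to 8.35 RPKM at day 14 and 8.67 and 10.6 RPKM in sham. Of the 5, 4 were called higher and none lower than sham at day 14 (limma, median log2 difference 2.48). At day 30 against sham the counts were the same (median 2.30). Of all genes, 33.4% were called higher at day 14 and 14.8% at day 30. After pneumonectomy none was called, where 42.0% of all genes were. In order of level over the 5 day 30 libraries, Ibsp and the summed scar macrophage markers shared their lowest library, library 1. It was also the lowest for Spp1, Runx2 and Col1a1. The rest of the order differed, as library 4 had the highest Ibsp (9.34 RPKM) and the second lowest sum (34.6 RPKM). The 7 osteoclast markers summed to 14.1 to 28.5 RPKM at day 30, 6.43 to 10.4 RPKM at day 14, 5.01 to 8.71 RPKM after pneumonectomy, and 5.26 and 5.85 RPKM in sham, most of it Acp5, and the osteoclast receptor gene Calcr was at most 0.0146 RPKM in any library. The part of macrophages or osteoclasts in the Spp1 and Ibsp levels was not tested. Epithelial markers, which include other makers of osteopontin, summed to 1251 RPKM in day 30 library 3 and 8.62 to 17.9 RPKM in the other day 30 libraries, 5.13 to 20.3 RPKM at day 14, 47.2 to 503 RPKM after pneumonectomy, and 15.9 and 11.3 RPKM in sham.

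**Figure D5:**
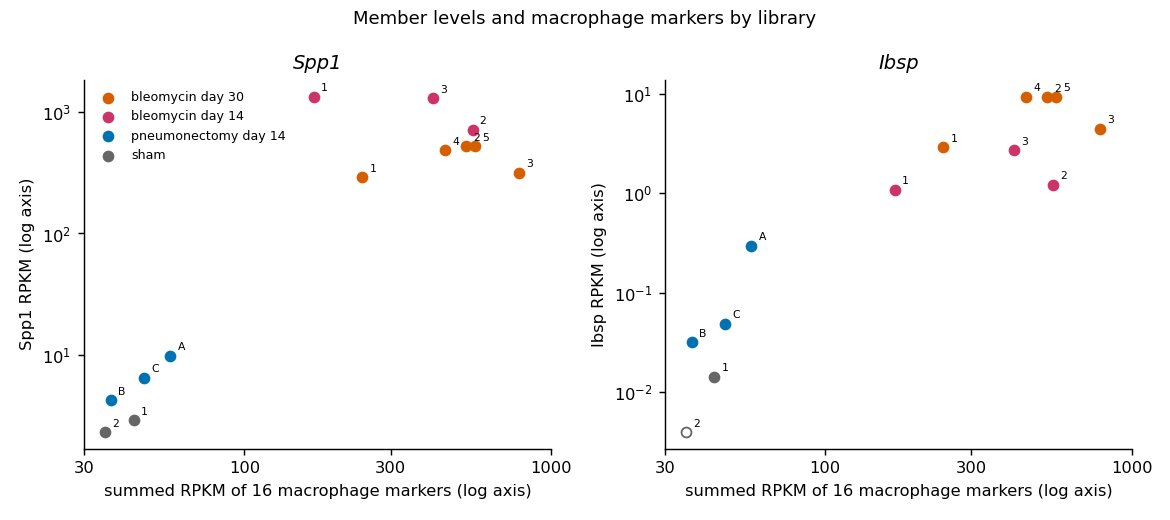
RPKM of Spp1 (left) and Ibsp (right) against the summed RPKM of 16 macrophage markers, log axes, 1 point per library with its replicate number; the open point is sham 2 with Ibsp at 0. The bleomycin libraries lie at 169 to 788 RPKM of markers and the others at 35.2 to 57.4 RPKM. Within day 14 the library with the lowest marker sum has the highest Spp1 and the lowest Ibsp. Within day 30 the library with the lowest marker sum has the lowest Spp1 and the lowest Ibsp.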

How the data were processed

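RNA sequencing of 13 libraries was analysed from gene values that the authors deposited as RPKM on mm10, per the submitters' processing notes; aligner, counter and annotation are not given in the sources used here. Library depth and reads per gene were estimated from the steps between low RPKM values with GENCODE M21 gene lengths; of 21537 low values, 99.6% were whole reads within 0.01. Genes at 1 RPKM or more in at least 2 libraries (12938) were scaled between libraries by trimmed means of ratios (30% of ratios and 5% of levels trimmed). Log2 of RPKM plus 0.1 was fitted for all 13 libraries together in limma 3.58.1 (R 4.3.3), two-sided, with Benjamini-Hochberg adjustment over all genes and a threshold of 0.05. Adding 0.1 understates changes of low genes. The fit was tested on simulated data. The members and gene lists were chosen with earlier results of these data known. Named were the members, their relatives, neighbours and receptors, up to 5 called genes of each other list by smallest p, up to 3 markers of each list by level, and the 8 genes most correlated with each member (5 RPKM or more in the highest group); Bglap, Calcr, Sp7, Vdr, Runx2, Fos, Jun, Lum, Tcf21, Thy1 and Pdgfra values outside this rule were chosen after they were seen. Alternatives were another pseudocount, no filter, other scalings, the compared groups alone, leaving out each library and a replicate block. Ankh and Adgre1 were found as Ank and Emr1.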

Additional observations from a re-analysis of the deposited data

Results flagged for a closer look

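In the 5 day 30 bleomycin libraries, 26 sets of values were checked for a single library far from the others, and chance gives about 1 such set in 20. Mepe was at 0.0327 RPKM in day 30 library 2 and at 0 to 0.00828 RPKM in the other 4, which rests on 11 reads. Itgb6 was at 0.116 RPKM in day 30 library 3, against 0.00212 to 0.00830 RPKM in the other 4. The summed epithelial markers were at 1251 RPKM in the same library 3, against 8.62 to 17.9 RPKM in the other 4. Spp1 and Ibsp in that library, 317 and 4.43 RPKM, lay within the range of the other day 30 libraries.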

How the results depend on the processing

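Spp1 kept the direction of all 5 differences under every alternative, as did Ibsp. Leaving out each library in turn, Spp1 differed by 6.99 to 7.30 (day 30 against sham), 8.21 to 8.70 (day 14 against sham), 1.19 to 1.78 (pneumonectomy against sham), 6.59 to 7.20 (bleomycin against pneumonectomy) and -1.56 to -1.07 (day 30 against day 14), and Ibsp, in the same order, by 5.70 to 6.12, 3.37 to 3.94, 0.48 to 1.35, 2.36 to 3.28 and 1.89 to 2.46. With a pseudocount of 1 RPKM Ibsp differed by 2.83, 1.24, 0.18 and 1.05 in the first 4 comparisons. All genes called numbered 1794 to 4085 at day 30 against sham and 3311 to 5079 after pneumonectomy on leaving out libraries, and 3374 after pneumonectomy with the compared groups alone. Same-numbered libraries correlated at -0.127 to 0.136, so the numbers were not taken as pairing. With the number as a replicate block, 369 genes and 6 companions were called at day 30 against sham, against 3731 and 23 without it. No paired analysis was possible for pneumonectomy because its columns carry no number. With values as deposited the median of all genes moved to 0.11, 0.26, -0.21, 0.47 and -0.13, and Pkd2 (0.12) and Sp1 (0.029) turned upward for bleomycin against pneumonectomy; the cause was not tested. Of 126 named gene results 88 were called in the same direction under every alternative. Depth limits Ibsp, Dmp1, Dspp and Mepe in sham and pneumonectomy libraries, at 0 to 74 reads each.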
